A study of Mus musculus with 6 samples.

Results

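The Sprr1 and Sprr2 genes described here are 10 genes of the mouse small proline-rich family, Sprr1a, Sprr1b, Sprr2b, Sprr2d, Sprr2e, Sprr2f, Sprr2g, Sprr2h, Sprr2i and Sprr2k. They were taken by symbol from the 52636 genes of the deposited expression table, in which 17 symbols begin with Sprr. All 10 passed the filter on low values, at least 1 CPM (counts scaled to the same total in every library) in at least 2 of the 6 libraries, although Sprr2b passed it only through the inhibitor-treated libraries. The table comes from bulk RNA sequencing of esophageal organoids, small epithelial cultures grown in matrigel with KSFM medium, from Krt5CreER:RosaSmoM2 mice. In these mice tamoxifen activates a Cre recombinase in cells that use the Krt5 promoter, which marks basal keratinocytes, and Cre switches on SmoM2, a mutant Smoothened that keeps Hedgehog signalling on without its ligand. All groups share this genotype, the collection of esophagi 5 days after tamoxifen and the 13 days of culture, so no group lacks SmoM2. One group received TGFb1 (1 ng/ml), BMP4 (20 ng/ml) and ibuprofen (500 µM), an inhibitor of the cyclooxygenases that form prostaglandins. A second received TGFb1 and BMP4 at the same doses without ibuprofen. The other group, which the authors call the control, received the TGFb receptor inhibitor A8301 (500 nM). Each treatment lasted 72 h, was renewed every 24 h and has 2 libraries.

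The labels do not say if replicate libraries are separate cultures or mice, so the p-values rest on a spread that may be technical. No group received neither the inhibitor nor the ligands, so an effect of TGFb1, one of BMP4 and the absence of the inhibitor cannot be told apart. Depth was 6413873 to 7730582 recovered reads per library. All 9 markers of esophageal epithelium reached 1 CPM in every library, and summed to 12141 and 12917 CPM with ligands and ibuprofen, 18397 and 14835 CPM with the ligands, and 18704 and 16121 CPM with the inhibitor. Among them Krt4, a keratin of suprabasal esophageal cells, stood at 2.90 and 1.25 CPM with ligands and ibuprofen, 1145 and 311.2 CPM with the ligands, and 3298 and 2158 CPM with the inhibitor. Its partner Krt13 stood at 634.0 and 1116 CPM with ligands and ibuprofen, 3587 and 2759 CPM with the ligands, and 9331 and 8073 CPM with the inhibitor. Krt14, a basal keratin, stood at 7735 and 8056 CPM with ligands and ibuprofen, 9097 and 7501 CPM with the ligands, and 2691 and 2553 CPM with the inhibitor. Both suprabasal keratins were thus lowest with ibuprofen, and Krt14 lowest with the inhibitor. Of the other epithelial markers, Krt5 and Epcam were also lowest with the inhibitor, while Krt15, Trp63 and Sox2 were highest there. Krt5 stood at 1743 and 1755 CPM with the inhibitor, against 2225 to 3229 CPM in the other libraries. For Krt15 these values were 219.8 and 80.7 against 4.05 to 29.5 CPM, and for Trp63 620.3 and 678.2 against 337.7 to 458.7 CPM. The epithelial markers thus did not share a direction. The 6 fibroblast markers all reached 1 CPM in every library too, and summed to 1235 and 1556 CPM with ligands and ibuprofen and to 1619 and 2403 CPM with the ligands, against 81.6 and 93.9 CPM with the inhibitor. Col1a1 and Col1a2 made up most of each sum. Col1a1 stood at 609.2 and 760.7 CPM with ligands and ibuprofen and at 884.7 and 1289 CPM with the ligands. With the inhibitor it stood at 18.5 and 18.2 CPM. Thy1 stood at 2.05 and 5.35 CPM with ligands and ibuprofen, and at 2.65 and 3.90 CPM with the inhibitor, which overlap. Pdgfra was highest with ligands and ibuprofen (67.9 and 67.8 CPM, against 29.4 and 52.3 CPM with the ligands). Of 5 immune markers, 2 reached 1 CPM in each library, while Ptprc and Cd3e, which define leukocytes and T cells, reached it in none. The 2 were Cd68 and Lyz2. Cd68 stood at 49.1 and 50.8 CPM with the inhibitor, against 7.50 to 18.8 CPM in the other libraries. For Lyz2 these values were 2.90 and 10.1 against 11.5 to 44.3 CPM. Endothelial markers summed to 3.7 to 9.6 CPM and muscle markers to 73.1 to 226.7 CPM.

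SPRR proteins are short, proline-rich precursors of the cornified envelope, the layer of cross-linked protein that forms under the membrane of keratinocytes late in squamous differentiation. Transglutaminases join their glutamine- and lysine-rich ends to each other and to partners such as loricrin, so that SPRR proteins act as cross-bridges. The genes lie side by side in the epidermal differentiation complex, where the mouse Sprr2 subfamily expanded by repeated duplication. Sprr1 and Sprr2 transcripts are known to increase in stressed, wounded or inflamed epithelium, and AP-1 and Ets factors are known to act on human SPRR promoters.

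The Sprr2 copies resemble one another upstream of their starts. Stretches of 210 bases that end 1 base before the RefSeq start are shown for the Sprr2 gene with the smallest adjusted p both with the ligands over the inhibitor and with ibuprofen over the ligands alone (Sprr2i), the most abundant Sprr2 gene (Sprr2d), the Sprr2 gene that stayed near 0 under both ligand treatments (Sprr2b), the one that the ligands did not lower beyond the replicate spread (Sprr2k), and both Sprr1 genes. Capitals mark TGANTCA, the AP-1 element in which N is any base, ATTTGCAT, the octamer element, and TATAAA, the TATA box.
Sprr2i: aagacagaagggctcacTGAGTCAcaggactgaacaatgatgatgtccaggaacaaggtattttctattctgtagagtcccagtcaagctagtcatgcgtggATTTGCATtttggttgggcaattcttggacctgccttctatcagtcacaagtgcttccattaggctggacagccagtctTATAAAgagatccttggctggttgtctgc
Sprr2d: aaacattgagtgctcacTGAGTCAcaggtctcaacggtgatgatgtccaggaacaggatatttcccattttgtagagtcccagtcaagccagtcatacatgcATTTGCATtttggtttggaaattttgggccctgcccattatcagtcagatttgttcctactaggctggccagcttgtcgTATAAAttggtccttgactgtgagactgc
Sprr2b: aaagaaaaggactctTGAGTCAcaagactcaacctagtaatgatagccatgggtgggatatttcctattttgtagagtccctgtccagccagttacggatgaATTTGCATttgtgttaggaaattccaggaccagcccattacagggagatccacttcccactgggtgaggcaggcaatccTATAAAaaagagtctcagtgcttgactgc
Sprr2k: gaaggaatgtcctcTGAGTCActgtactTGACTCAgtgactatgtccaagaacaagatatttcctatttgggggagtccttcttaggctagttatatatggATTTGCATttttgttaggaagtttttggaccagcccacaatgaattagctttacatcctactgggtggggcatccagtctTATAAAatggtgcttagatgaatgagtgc
Sprr1a: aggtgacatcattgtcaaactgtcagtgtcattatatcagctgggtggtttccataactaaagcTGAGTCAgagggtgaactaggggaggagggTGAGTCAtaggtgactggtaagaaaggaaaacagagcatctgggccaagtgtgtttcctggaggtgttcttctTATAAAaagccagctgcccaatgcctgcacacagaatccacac
Sprr1b: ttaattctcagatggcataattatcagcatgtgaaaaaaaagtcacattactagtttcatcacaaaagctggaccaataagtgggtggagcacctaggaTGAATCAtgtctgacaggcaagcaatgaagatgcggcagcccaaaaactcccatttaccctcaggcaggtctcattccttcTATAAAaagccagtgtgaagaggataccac
These sequences are from RefSeq (GRCm38.p6), read 5′ to 3′ along the gene. They lie at chr3:92407781-92407990 (plus strand) for Sprr2i, chr3:92338930-92339139 (plus) for Sprr2d, chr3:92316495-92316704 (plus) for Sprr2b, chr3:92432372-92432581 (plus) for Sprr2k, chr3:92485882-92486091 (minus) for Sprr1a and chr3:92438780-92438989 (minus) for Sprr1b.

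Motifs were searched on both strands in windows from 250 bases before to 50 after the start, which RefSeq gave for 9 of the 10 genes (all but Sprr2g). TATAAA was found in 9 of 9, against 13.62% of all 32851 promoters. TGANTCA was also found in 9 of 9, against 7.81% of all promoters. ATTTGCAT, searched for after the sequences had been read, was found in 7 of 7 Sprr2 promoters and in neither Sprr1 promoter, against 1.74% of all promoters. In all 7 Sprr2 promoters TATAAA began at base -29, and in Sprr2i, Sprr2d, Sprr2e and Sprr2b the octamer began at base -108. Sprr2k carries a TGANTCA at -182 beside the one at -196, and Sprr1a carries a pair at -146 and -116. The Ets core AGGAAG was found in Sprr2f and Sprr2k (35.35% of all promoters), and the Klf and Sp element GGGNGNGG in Sprr2b, Sprr2h and Sprr2k (49.47%). GGCGCC, a SMAD element of the BMP pathway, was found in 0 of 9 (11.87%). No SMAD element of the TGFb pathway was searched for. No match in the 9 windows overlapped another. A match describes letters and not a bound site. Over the 210 bases, in a global alignment, the Sprr2 pairs most alike were Sprr2d and Sprr2e (91.9% identical), Sprr2h and Sprr2k (80.2%), and Sprr2i and Sprr2e (80.1%). The other Sprr2 pairs ran from 63.0% (Sprr2f and Sprr2h) to 78.7% (Sprr2i and Sprr2d). Sprr1a and Sprr1b were 51.9% identical, and pairs of a Sprr1 with a Sprr2 gene 45.6% to 49.6%.

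The 10 genes lie between positions 92316620 and 92485895 of chromosome 3 (GRCm38, GENCODE vM21). The 8 Sprr2 genes are read from the plus strand in the order b, d, e, f, g, h, i, k, and Sprr1b and Sprr1a follow on the minus strand. GENCODE lists Sprr2g as a polymorphic pseudogene and the other 9 as protein-coding. Its genes reach beyond the RefSeq starts used above for Sprr2b (to 92316620), Sprr1a (to 92485895) and Sprr1b (to 92438789). Part of each of those upstream stretches thus lies inside the GENCODE gene. Since copies may hold the same stretches, the share of 50-base windows of each gene's transcripts that occurs in no other gene's transcripts was computed. It was 100% for Sprr1a, Sprr1b, Sprr2g, Sprr2h and Sprr2k, 99.3% for Sprr2f, 95.7% for Sprr2d, 89.8% for Sprr2e, 87.5% for Sprr2i and 85.9% for Sprr2b. With 100-base windows each of the 10 genes was at 98.8% or more. The read length and the handling of reads that fit several genes are not given in the sources used here, so the split of reads among Sprr2b, Sprr2e, Sprr2i and their copies is uncertain.

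The treatments left Sprr1 and Sprr2 transcripts in different proportions. Summed over the 8 Sprr2 genes, the level was 1765 and 1308 CPM with TGFb1, BMP4 and ibuprofen, 609.3 and 334.1 CPM with TGFb1 and BMP4, and 1999 and 2560 CPM with the inhibitor. Summed over Sprr1a and Sprr1b, it was 1570 and 2279 CPM with ligands and ibuprofen, 2386 and 2344 CPM with the ligands, and 1601 and 1528 CPM with the inhibitor. The Sprr2 sums were lowest in the pair of TGFb1+BMP4 libraries and the Sprr1 sums highest there. Sprr2 transcripts made up 52.9% and 36.5% of the CPM of the 10 genes with ligands and ibuprofen, 20.3% and 12.5% with the ligands, and 55.5% and 62.6% with the inhibitor. After scaling between libraries, the Sprr2 sum with the ligands was 0.209 times that with the inhibitor, and with ibuprofen added it was 3.4 times that with the ligands alone. The Sprr2 sums leave out Sprr2a1, Sprr2a2, Sprr2a3, Sprr2c-ps and Sprr2j-ps, whose values are given below. An exact permutation test on groups of 2 libraries cannot give a p below 0.33, so these sums carry no test of their own. In bulk RNA, fewer cells that make a transcript and less of it per cell cannot be told apart. The fibroblast marker sums and the keratins given above also differed between the treatments, and their part in the values below was not tested.

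**Figure D1:**
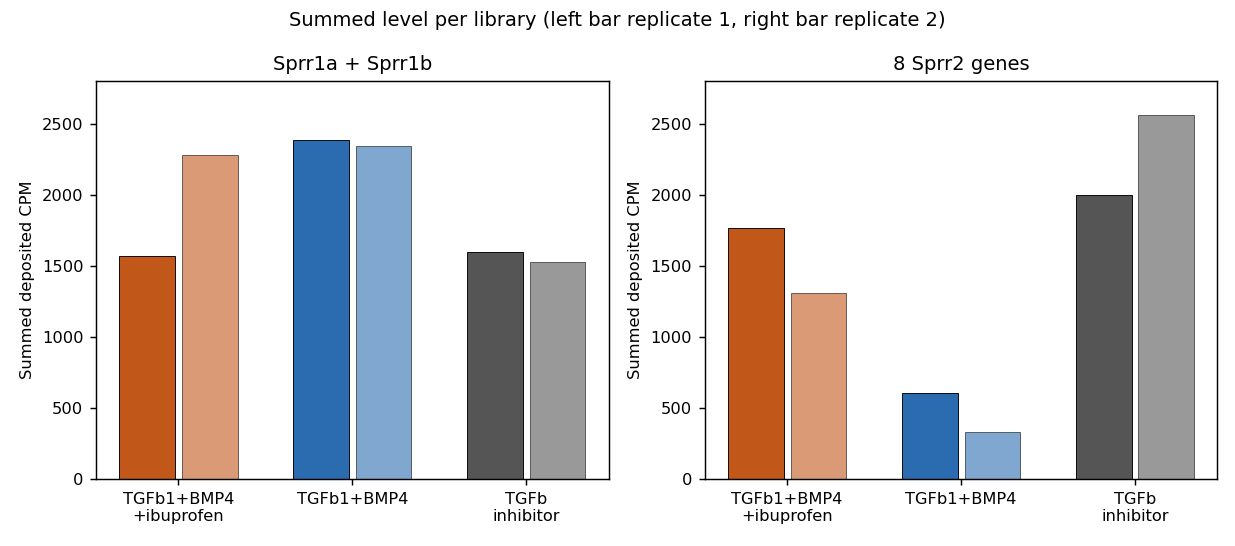
Deposited CPM summed over Sprr1a and Sprr1b (left) and over the 8 Sprr2 genes (right), 1 bar per library, with replicate 1 left and replicate 2 right in each treatment. The Sprr2 sums of 609.3 and 334.1 CPM with TGFb1+BMP4 lie below those of all other libraries, while the Sprr1 sums of 2386 and 2344 CPM there lie above them.

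Per kilobase of exon, the scale on which levels of different genes can be compared, Sprr1a was the most abundant of the 10 in each treatment, at a mean of 2182 CPM per kb with ligands and ibuprofen, 2782 with the ligands and 1815 with the inhibitor. With the inhibitor, the means in CPM per kb were next highest for Sprr2d (1030) and Sprr2i (990.4), then for Sprr2f (476.1), Sprr2g (396.3), Sprr2h (364.5), Sprr2e (200.1), Sprr1b (121.9), Sprr2b (15.8) and Sprr2k (4.43). The libraries of Sprr2d and Sprr2i overlapped there, as did those of Sprr2f and Sprr2g and those of Sprr2g and Sprr2h, so these neighbours did not differ beyond their spread. With the ligands the order below Sprr1a was Sprr2d (292.9), Sprr2f (167.1), Sprr1b (147.6), Sprr2g (113.3), Sprr2h (61.9), Sprr2i (39.2), Sprr2e (35.8), Sprr2k (4.12) and Sprr2b (0.191). Each gene from Sprr2d to Sprr2h overlapped the next in its libraries there, as did Sprr2i and Sprr2e, so Sprr2i stood next to Sprr2e and below all of these. With ligands and ibuprofen it was Sprr2d (832.8), Sprr2i (475.8), Sprr2g (329.9), Sprr2f (269.7), Sprr2h (212.6), Sprr2e (209.8), Sprr1b (199.7), Sprr2k (1.45) and Sprr2b (0.319). Sprr2d and Sprr2i were each apart from their neighbours in that order, while those from Sprr2g to Sprr1b overlapped 1 after the other.

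**Figure D2:**
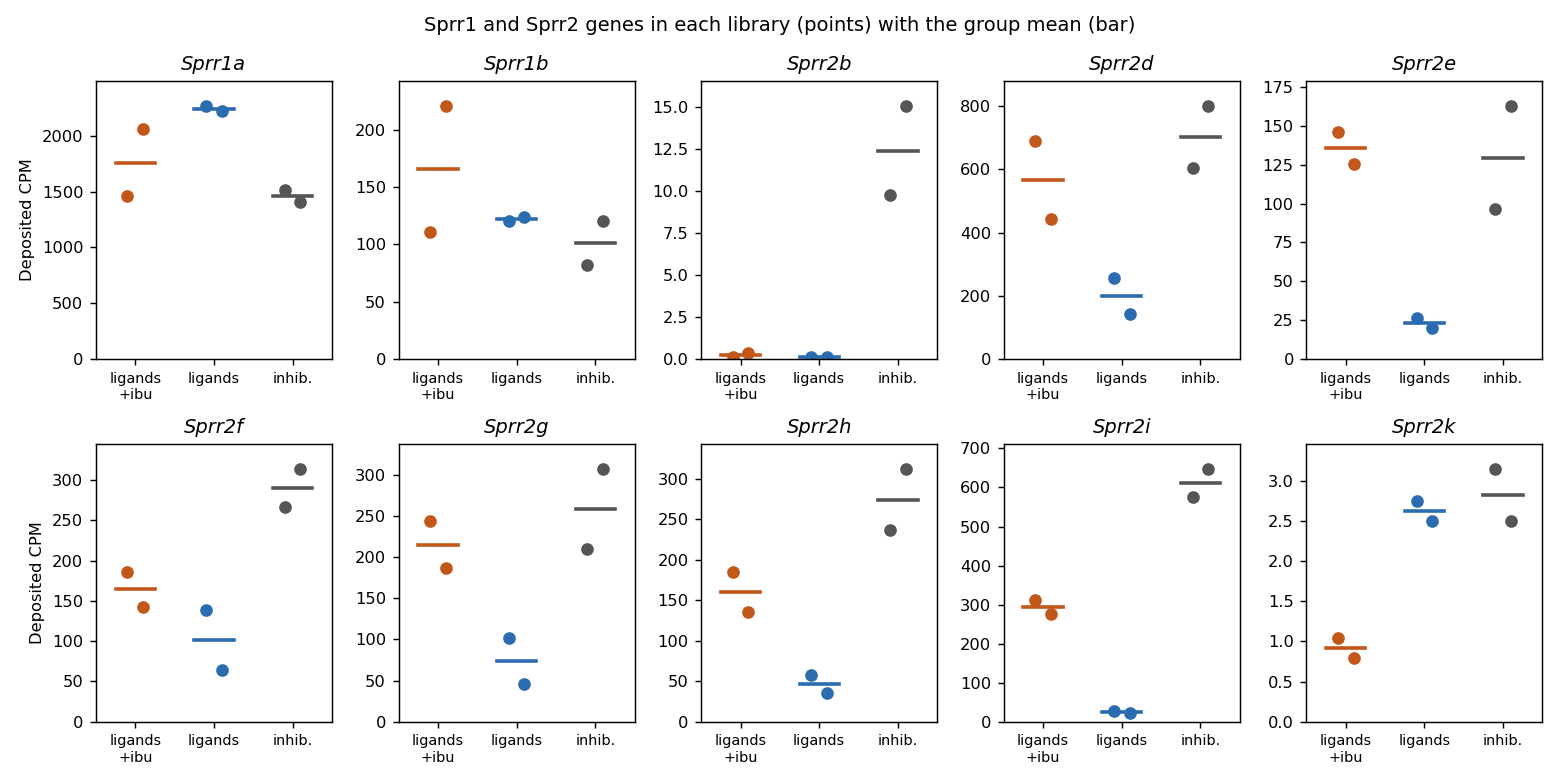
Deposited CPM of each of the 10 genes in each of the 6 libraries (points), by treatment, with a linear axis from 0 in each panel and the mean of 2 libraries as a bar. In the panels from Sprr2d to Sprr2i both TGFb1+BMP4 points are the lowest of the 6, while for Sprr1a they are the highest, at 2265 and 2220 CPM.

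In TGFb1+BMP4 organoids, set against inhibitor-treated organoids, 7 of the 10 genes fell, all of them Sprr2 genes, 1 rose (Sprr1a), and Sprr1b and Sprr2k did not pass the limma test. Passing means a Benjamini-Hochberg adjusted p under 0.05 over all 18241 genes tested. Over all genes tested, 19.9% fell and 20.4% rose in this comparison, 40.3% in either direction. Sprr2b entered the test only through the inhibitor libraries, where it is high, and so could only be lower with the ligands; of the other 9 genes, 6 fell, and their median log2 fold change was -1.85. The libraries of the groups did not overlap in CPM for 9 of the 10 genes, against 72.2% of all genes tested. The median log2 fold change of the 10 genes was -1.86, against -0.003 over all genes tested.

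Sprr2i, a cornified envelope precursor like the other Sprr2 genes, had the smallest adjusted p of the 10. It stood at 26.5 and 21.9 CPM with the ligands, against 574.9 and 647.3 CPM with the inhibitor. Both ligand libraries were far below both inhibitor libraries, and the log2 fold change was -4.60 (SE 0.126, limma adjusted p = 2.98e-07), a fold of 0.0413 (95% interval 0.0338 to 0.0505). Sprr2b had 0.15 CPM in each ligand library (1 read each), against 9.74 and 15.0 CPM with the inhibitor, which is 71 and 116 reads. It was close to undetected with the ligands and clearly detected, though low, with the inhibitor. Scaled for depth, the ratio of its reads was 0.0116, with an exact 95% interval of 0.00139 to 0.0424 that covers counting error only. Its limma log2 fold change on the log2(CPM + 1) scale, -3.49 (adjusted p = 3.25e-05), understates the change at so low a level. With either inhibitor library left out, Sprr2b no longer passed the filter on low values and was not tested.

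Sprr2e stood at 26.7 and 19.7 CPM with the ligands, against 96.4 and 162.5 CPM with the inhibitor. Sprr2h stood at 57.6 and 35.5 CPM with the ligands, against 236.4 and 311.9 CPM with the inhibitor. Neither gene's groups overlapped, and the log2 fold changes were -2.39 (SE 0.239, limma adjusted p = 0.00012) for Sprr2e and -2.55 (SE 0.244, limma adjusted p = 9.37e-05) for Sprr2h. Sprr2d, the most abundant Sprr2 transcript, stood at 255.6 and 143.3 CPM with the ligands, against 603.2 and 799.8 CPM with the inhibitor (log2 fold change -1.85, limma adjusted p = 0.00145). Sprr2f stood at 138.8 and 64.7 CPM with the ligands, against 266.2 and 313.7 CPM with the inhibitor (log2 fold change -1.59, limma adjusted p = 0.00391). Sprr2g stood at 101.1 and 46.3 CPM with the ligands, against 209.2 and 306.8 CPM with the inhibitor (log2 fold change -1.86, limma adjusted p = 0.00275). In these 3 genes the first ligand library lay between the other ligand library and the inhibitor libraries, and the groups did not overlap. When TGFb1+BMP4 replicate 2 was omitted, the change was -1.28 for Sprr2g (limma adjusted p = 0.0034) and -1.01 for Sprr2f (limma adjusted p = 0.00249).

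Sprr1a was higher with the ligands, at 2265 and 2220 CPM, against 1519 and 1408 CPM with the inhibitor. The groups did not overlap, and the log2 fold change was 0.62 (SE 0.162, limma adjusted p = 0.0153), a fold of 1.54 (95% interval 1.19 to 1.99). This call ended without either inhibitor library (limma adjusted p = 0.0601 without replicate 1 and 0.0906 without replicate 2), without TGFb1+BMP4 replicate 1 (0.0553) and with no filter on low values (0.0501). Sprr1b stood at 120.9 and 124.1 CPM with the ligands, against 82.2 and 120.1 CPM with the inhibitor, and its log2 fold change of 0.31 (95% interval -0.36 to 0.97) did not pass (limma adjusted p = 0.437). Sprr2k, the lowest of the genes with the inhibitor, stood at 2.75 and 2.5 CPM with the ligands, against 3.15 and 2.5 CPM with the inhibitor, or 19 and 17 reads against 23 and 19. Its ligand libraries lay within the range of its inhibitor libraries, and the log2 fold change was -0.07 (95% interval -0.60 to 0.47, limma adjusted p = 0.846).

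**Figure D3:**
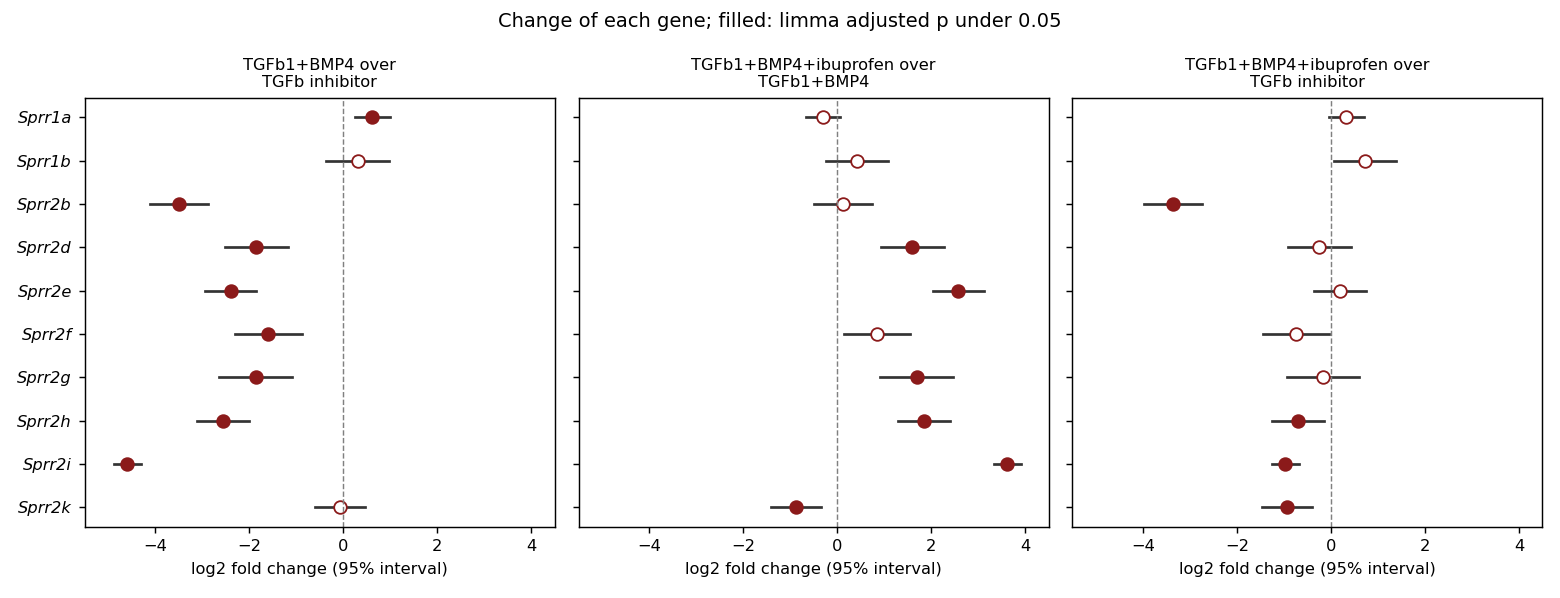
Log2 fold change of each of the 10 genes in each comparison, with its 95% interval from limma, the dashed line at 0 and filled points where the adjusted p is under 0.05. Sprr2i lies farthest left with the ligands over the inhibitor (-4.60) and farthest right with ibuprofen added over the ligands alone (3.62).

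Ibuprofen was tested on top of the ligands, in TGFb1+BMP4+ibuprofen organoids set against TGFb1+BMP4 organoids. Of the 10 genes, 5 rose (Sprr2d, Sprr2e, Sprr2g, Sprr2h and Sprr2i), 1 fell (Sprr2k) and 4 did not pass (Sprr1a, Sprr1b, Sprr2b and Sprr2f). Over all genes tested, 10.7% rose and 9.01% fell in this comparison, 19.7% in either direction. Those are 1957 genes that rose and 1644 that fell, and without the between-library scaling factors they were 1549 and 2037. The libraries of the groups did not overlap for 8 of the 10 genes, against 58.8% of all genes tested. The median log2 fold change of the 10 genes was 1.22, against -0.008 over all genes tested. This comparison shares the TGFb1+BMP4 libraries with the one above, so a low value there enters both.

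Sprr2i again had the smallest adjusted p of the 10, with 312.1 and 275.0 CPM with ibuprofen, against 26.5 and 21.9 CPM with the ligands alone. Its log2 fold change was 3.62 (SE 0.126, limma adjusted p = 1.52e-05), a fold of 12.3 (95% interval 10.1 to 15.0). Sprr2e stood at 145.8 and 125.6 CPM with ibuprofen, against 26.7 and 19.7 CPM with the ligands alone (log2 fold change 2.58, limma adjusted p = 0.000319). In both genes each ibuprofen library was above each library without it by several fold. Sprr2h stood at 184.2 and 135.6 CPM with ibuprofen, against 57.6 and 35.5 CPM with the ligands alone (log2 fold change 1.85, limma adjusted p = 0.00144). Sprr2d stood at 691.6 and 442.6 CPM with ibuprofen, against 255.6 and 143.3 CPM with the ligands alone (log2 fold change 1.60, limma adjusted p = 0.00691). Sprr2g stood at 243.5 and 186.1 CPM with ibuprofen, against 101.1 and 46.3 CPM with the ligands alone (log2 fold change 1.69, limma adjusted p = 0.00967). For these 3 genes too the groups did not overlap. Without ibuprofen replicate 1 the limma adjusted p was 0.0591 for Sprr2d and 0.0784 for Sprr2g. For Sprr2g it was also 0.0519 with no filter on low values and 0.0515 without the mean-variance trend, and omitting TGFb1+BMP4 replicate 1 or 2 moved its change to 2.27 or 1.1.

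Sprr2f stood at 186.3 and 142.3 CPM with ibuprofen, against 138.8 and 64.7 CPM with the ligands alone. The groups were separate by a narrow margin, and its log2 fold change of 0.84 (95% interval 0.14 to 1.55) did not pass (limma adjusted p = 0.0924). It passed with the replicate number as a block (limma adjusted p = 0.0356) and without TGFb1+BMP4 replicate 1 (log2 fold change 1.42, limma adjusted p = 0.00121). Omitting TGFb1+BMP4 replicate 2 instead gave 0.26 (limma adjusted p = 0.379). Sprr2b stayed at 0.15 and 0.35 CPM with ibuprofen, against 0.15 CPM in each library with the ligands alone, which is 1 and 2 reads against 1 and 1. At 3 against 2 reads a difference was not detectable at this depth. Sprr2k stood at 1.05 and 0.80 CPM with ibuprofen, against 2.75 and 2.5 CPM with the ligands alone, or 7 and 5 reads against 19 and 17. Its log2 fold change was -0.88 (limma adjusted p = 0.0323), and the depth-scaled ratio of its reads was 0.347 (exact 95% interval 0.164 to 0.682, counting error only). The call ended whichever 1 of the 6 libraries was left out (limma adjusted p 0.0544 to 0.122), with no filter (0.085), with only the 2 groups in the fit (0.0531) and with limma-voom on recovered reads (0.0592).

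Neither Sprr1 gene passed in this comparison. Sprr1a stood at 1460 and 2058 CPM with ibuprofen, against 2265 and 2220 CPM with the ligands alone, and its log2 fold change of -0.30 (95% interval -0.67 to 0.07) did not pass (limma adjusted p = 0.237). The first ibuprofen library was at the level of the inhibitor libraries and the other close to the TGFb1+BMP4 libraries. Without ibuprofen replicate 2 the change was -0.55 (limma adjusted p = 0.0255). Sprr1b stood at 110.9 and 220.6 CPM with ibuprofen, against 120.9 and 124.1 CPM with the ligands alone (log2 fold change 0.42, 95% interval -0.24 to 1.08, limma adjusted p = 0.353). Its ibuprofen libraries lay on either side of the ligand libraries, and the change was 0.92 without replicate 1 (limma adjusted p = 0.0377) and -0.08 without replicate 2.

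TGFb1+BMP4+ibuprofen organoids were also set against inhibitor-treated organoids, which shows how the levels with ibuprofen stood beside those without the ligands. Of the 10 genes, 4 fell (Sprr2b, Sprr2h, Sprr2i and Sprr2k) and 6 did not pass. Over all genes tested, 19.9% fell and 20.8% rose in this comparison, 40.7% in either direction, so the share of the 10 genes that passed, 4 of 10, was near that background. Without Sprr2b, which again entered only through the inhibitor libraries, 3 of 9 fell, with a median log2 fold change of -0.25. The libraries of the groups did not overlap for 5 of the 10 genes, against 72.4% of all genes tested. The median log2 fold change of the 10 genes was -0.47, against -0.023 over all genes tested. Without inhibitor replicate 1, inhibitor replicate 2 or ibuprofen replicate 2, the number that passed was 1, 2 and 2.

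Sprr2i stood at 312.1 and 275.0 CPM with ligands and ibuprofen, against 574.9 and 647.3 CPM with the inhibitor. All its libraries with ibuprofen were below those with the inhibitor, and the log2 fold change was -0.98 (SE 0.126, limma adjusted p = 0.000482), a fold of 0.509 (95% interval 0.416 to 0.621). Sprr2b stood at 0.15 and 0.35 CPM with ligands and ibuprofen, against 9.74 and 15.0 CPM with the inhibitor (limma log2 fold change -3.36, adjusted p = 3.87e-05), and the depth-scaled ratio of its reads was 0.0181 (exact 95% interval 0.0037 to 0.0537). Sprr2k stood at 1.05 and 0.80 CPM with ligands and ibuprofen, against 3.15 and 2.5 CPM with the inhibitor (log2 fold change -0.94, limma adjusted p = 0.0124). Its call ended without inhibitor replicate 1 (limma adjusted p = 0.0904) and without ibuprofen replicate 2 (0.0619). Sprr2h stood at 184.2 and 135.6 CPM with ligands and ibuprofen, against 236.4 and 311.9 CPM with the inhibitor (log2 fold change -0.70, limma adjusted p = 0.0492). Its call was marginal and ended in 9 of the alternatives, with limma adjusted p between 0.0514 and 0.25. Among these 9 were RLE in place of TMM factors (0.0541) and the omission of either library of either group compared.

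Sprr2e was at 145.8 and 125.6 CPM with ligands and ibuprofen, against 96.4 and 162.5 CPM with the inhibitor, and its inhibitor libraries lay on either side of the ibuprofen libraries (log2 fold change 0.19, 95% interval -0.36 to 0.74, limma adjusted p = 0.564). Sprr2d (log2 fold change -0.25, 95% interval -0.92 to 0.42) and Sprr2g (-0.17, 95% interval -0.94 to 0.60) also had groups that overlapped and did not pass (limma adjusted p = 0.541 and 0.724). These intervals leave room for changes of up to nearly 1 log2 unit downward. Sprr2f had a log2 fold change of -0.74 (95% interval -1.45 to -0.04, limma adjusted p = 0.0871), and passed with the replicate block (0.0351), with only the 2 groups in the fit (0.00275), without TGFb1+BMP4 replicate 1 (0.00274) or replicate 2 (0.00298). Sprr1a had a log2 fold change of 0.33 (limma adjusted p = 0.144), and of 0.58 without ibuprofen replicate 1 (0.0125). Sprr1b had 0.73 (limma adjusted p = 0.0757), which passed with the replicate block (0.0124) and without ibuprofen replicate 1 (1.23, limma adjusted p = 0.00498).

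Among the other Sprr genes, 7 of 8 looked for are in the table and 6 were tested. Of these 6, 4 fell and 0 rose with the ligands over the inhibitor, 2 rose and 1 fell with ibuprofen over the ligands alone, and 4 fell and 0 rose with ibuprofen over the inhibitor. Of all genes tested 19.9% fell and 20.4% rose, 10.7% rose and 9.01% fell, and 19.9% fell and 20.8% rose in these comparisons. The median log2 fold changes of the 6 were -1.02, 0.00 and -1.48. Sprr2j-ps, which lies between Sprr2i and Sprr2k, stood at 11.6 and 13.4 CPM with ligands and ibuprofen, 3.60 and 3.35 CPM with the ligands, and 99.99 and 144.1 CPM with the inhibitor. Its log2 fold changes were -4.75 with the ligands over the inhibitor, 1.66 with ibuprofen over the ligands alone and -3.09 with ibuprofen over the inhibitor, and all 3 passed (limma adjusted p = 1.98e-06, 0.000837 and 1.21e-05). Sprr2c-ps, a processed pseudogene between Sprr2b and Sprr2d, had 12 and 12 reads with ligands and ibuprofen, 1 and 0 with the ligands, and 18 and 34 with the inhibitor. It fell with the ligands (log2 fold change -2.0, limma adjusted p = 0.00067) and rose with ibuprofen over the ligands alone (1.43, limma adjusted p = 0.00829), and its change with ibuprofen over the inhibitor was -0.57 (limma adjusted p = 0.135). As its level with the ligands is a single read, its depth-scaled read ratios have wide exact 95% intervals, 0.0208 (0.000518 to 0.121) for the ligands over the inhibitor and 25.0 (4.07 to 1030) for ibuprofen over the ligands alone.

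Sprr3, the family member typical of esophagus and other inner linings, had another pattern. It stood at 221.3 and 551.1 CPM with ligands and ibuprofen, 1075 and 1074 CPM with the ligands, and 1982 and 1880 CPM with the inhibitor. The 3 treatments were in separate ranges with ibuprofen the lowest. Sprr3 fell with ibuprofen over the ligands alone (log2 fold change -1.55, limma adjusted p = 0.0141) and with ibuprofen over the inhibitor (-2.38, limma adjusted p = 0.00074). The first of these calls ended with no filter (limma adjusted p = 0.0655) and without the mean-variance trend (0.0619), and the change was -0.88 without ibuprofen replicate 1 and -2.21 without replicate 2. Omitting the same libraries moved the change with ibuprofen over the inhibitor to -1.72 and -3.05. With the ligands over the inhibitor its change of -0.84 did not pass (limma adjusted p = 0.078), and passed with the replicate block (0.0378), with only the 2 groups compared in the fit (0.000742) and without ibuprofen replicate 1 (0.000527) or 2 (0.000444).

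Sprr2a1 and Sprr2a2 overlap in position and only 3.7% and 3.5% of their 50-base windows are unique to each, so they are uncertain as separate genes and read nearly the same. Sprr2a1 stood at 73.2 and 59.6 CPM with ligands and ibuprofen, 142.1 and 63.7 CPM with the ligands, and 185.2 and 210.2 CPM with the inhibitor. Its log2 fold change was -1.04 with the ligands over the inhibitor (limma adjusted p = 0.0292), -0.45 with ibuprofen over the ligands alone (0.361) and -1.49 with ibuprofen over the inhibitor (0.00585). Leaving out a TGFb1+BMP4 library moved the first of these values to -1.63 (without replicate 1) or -0.43 (without replicate 2, limma adjusted p = 0.056). That call also ended with no filter, without the trend and without either inhibitor library (limma adjusted p 0.0782 to 0.131). The change with ibuprofen over the ligands alone was -1.06 without TGFb1+BMP4 replicate 2 (limma adjusted p = 0.00314). Sprr2a2 had -1.01, -0.46 and -1.47 in the same 3 comparisons (limma adjusted p = 0.033, 0.357 and 0.00642). Its first call ended under the alternatives that ended that of Sprr2a1, and with only the 2 groups compared in the fit (limma adjusted p = 0.052). Without TGFb1+BMP4 replicate 1 or 2 that change of Sprr2a2 was -1.61 or -0.40 (the second with limma adjusted p = 0.0725). Sprr2a3 stood at 51.4 and 30.1 CPM with ligands and ibuprofen, 45.1 and 19.7 CPM with the ligands, and 51.3 and 53.6 CPM with the inhibitor, and passed in none of the comparisons (limma adjusted p = 0.117, 0.424 and 0.509). Without TGFb1+BMP4 replicate 1 it passed in the first (log2 fold change -1.39, limma adjusted p = 0.00438) and the second of them (1.06, 0.0282), and with the replicate block in the first (0.0259). Sprr4 had 0 to 4 reads per library and was not tested.

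Genes in the middle of the cluster moved alike, in a stretch picked out after the values were seen. From Sprr2c-ps through Sprr2j-ps, 8 neighbouring genes, all 8 fell with the ligands over the inhibitor, and all but Sprr2f rose with ibuprofen over the ligands alone. Over all genes tested, 19.9% fell in the first and 10.7% rose in the second of these comparisons. The ends of the stretch were set by these same values, so its counts are a description and no test against those shares. On one side Sprr2b, and beyond it Sprr2a1 and Sprr2a2, fell with the ligands and did not pass with ibuprofen, while Sprr2a3 passed in neither. The fall with the ligands thus reached beyond the stretch. On the other side Sprr2k did not pass with the ligands, and the Sprr1 genes and Sprr3 beyond it had the values given above. The promoters of Sprr2b and Sprr2k, shown above, hold TGANTCA, ATTTGCAT and TATAAA as that of Sprr2i does. Both also hold GGGNGNGG, and that of Sprr2k a further TGANTCA and AGGAAG, which that of Sprr2i lacks. A link of these motifs with the levels was not tested.

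**Figure D4:**
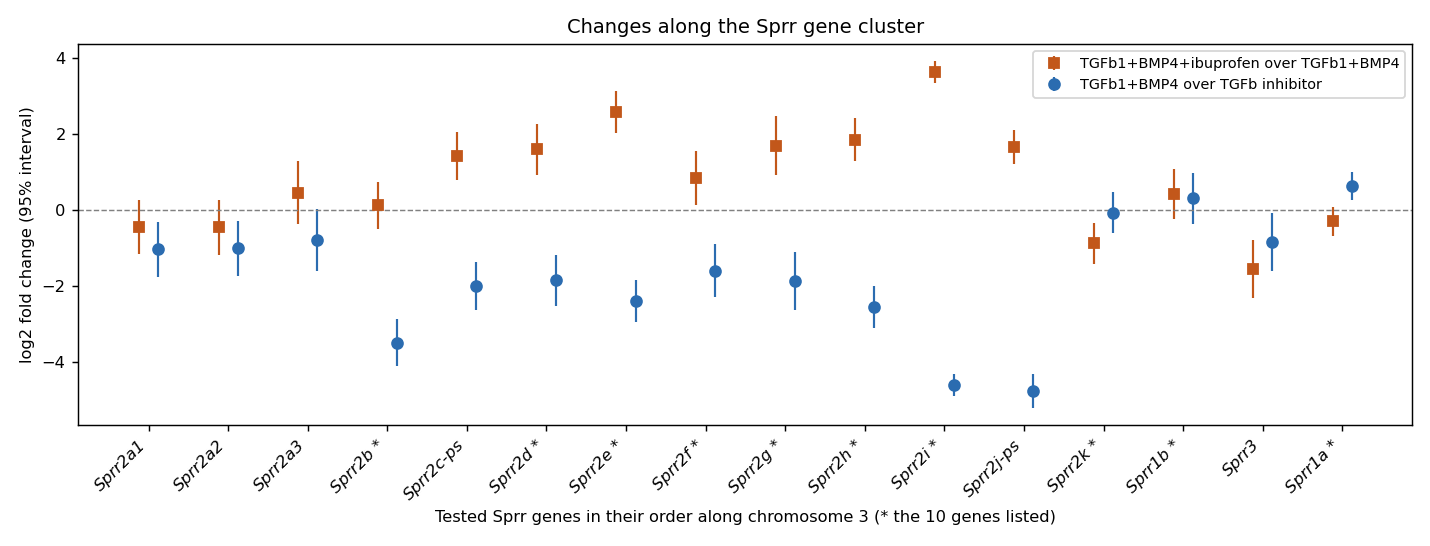
Log2 fold change with its 95% interval from limma for the 16 tested Sprr genes in their order along chromosome 3, with the 10 genes described marked by an asterisk and 1 colour per comparison (orange squares for ibuprofen over the ligands alone, blue circles for the ligands over the inhibitor). From Sprr2c-ps to Sprr2j-ps the intervals lie below 0 for the ligands over the inhibitor and above 0 for ibuprofen over the ligands alone. At the flanks the interval of Sprr2b for ibuprofen and that of Sprr2k for the ligands include 0.

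Other genes of the cornified envelope were counted from lists written with earlier results of these data known. Of 20 tested envelope partners, which are precursors, scaffold and desmosome proteins, 5 rose and 11 fell with the ligands over the inhibitor, 1 rose and 7 fell with ibuprofen over the ligands alone, and 4 rose and 13 fell with ibuprofen over the inhibitor. Over all genes tested 20.4% rose and 19.9% fell, 10.7% rose and 9.01% fell, and 20.8% rose and 19.9% fell in these comparisons. The median log2 fold changes of the partners were -0.61, -0.23 and -0.86. Lor, which encodes loricrin, the main envelope precursor in skin, stood at 1.2 and 6.54 CPM with ligands and ibuprofen, 107.3 and 221.2 CPM with the ligands, and 1066 and 1115 CPM with the inhibitor. Unlike Sprr2i, it was lower with ibuprofen than with the ligands alone, with log2 fold changes of -2.81 with the ligands over the inhibitor (limma adjusted p = 0.00275), -5.19 with ibuprofen over the ligands alone (0.000379) and -8.00 with ibuprofen over the inhibitor (1.29e-05). Leaving out 1 library moved these to between -3.29 and -2.31, between -6.10 and -4.29 and between -8.91 and -7.10. Ivl, which encodes involucrin, an early envelope scaffold, stood at 20.5 and 11.4 CPM with ligands and ibuprofen, 18.8 and 18.7 CPM with the ligands, and 1.00 and 1.05 CPM with the inhibitor. It rose with the ligands over the inhibitor (log2 fold change 3.28, limma adjusted p = 3.79e-05) and with ibuprofen over the inhibitor (3.08, limma adjusted p = 5.27e-05). Lor and Ivl thus moved in opposite directions over the inhibitor.

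With the ligands over the inhibitor, Krtdap, a secreted protein of differentiating keratinocytes (log2 fold change -4.54, limma adjusted p = 0.00152, -5.17 to -3.91 with 1 library left out), and Cdsn, the corneodesmosome protein corneodesmosin (-1.33, limma adjusted p = 0.00075), fell. Ibuprofen over the ligands alone gave lower Csta1, a cysteine protease inhibitor (-1.97, limma adjusted p = 0.000685), Hrnr, which encodes hornerin (-4.82, limma adjusted p = 0.00208), and Rptn, which encodes repetin (-5.41, limma adjusted p = 0.00228). With 1 library left out the change of Hrnr lay between -6.06 and -3.58 and that of Rptn between -6.90 and -3.92, and for Hrnr limma-voom on recovered reads gave an adjusted p of 0.241. Over the inhibitor, ibuprofen-treated organoids had lower Hrnr (-7.14, limma adjusted p = 9.73e-05, 0.0757 with limma-voom, -7.76 to -6.52 with 1 library left out) and Tchh, which encodes trichohyalin (-1.72, limma adjusted p = 9.87e-05).

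Of the 6 transglutaminases, the enzymes that cross-link SPRR proteins, 3 rose and 2 fell with the ligands over the inhibitor, 0 rose and 4 fell with ibuprofen over the ligands alone, and 1 rose and 4 fell with ibuprofen over the inhibitor. The shares of all genes tested that passed in either direction were 40.3%, 19.7% and 40.7%. Median log2 fold changes of the 6 were 0.79, -2.14 and -1.95. Tgm1, the membrane-bound keratinocyte enzyme, stood at 260.1 and 274.9 CPM with ligands and ibuprofen, 310.7 and 297.8 CPM with the ligands, and 810.8 and 850.9 CPM with the inhibitor. It fell with the ligands over the inhibitor (log2 fold change -1.44, limma adjusted p = 1.12e-05) and with ibuprofen over the inhibitor (-1.55, limma adjusted p = 8.05e-06). Tgm3, the epidermal enzyme, stood at 2.90 and 6.89 CPM with ligands and ibuprofen, 104.6 and 151.4 CPM with the ligands, and 318.6 and 324.0 CPM with the inhibitor. Its libraries with ibuprofen were far below all others, and it fell with ibuprofen over the ligands alone (-4.45, limma adjusted p = 5.97e-05) and over the inhibitor (-5.79, limma adjusted p = 4.17e-06). Tgm2, the tissue transglutaminase, rose with the ligands over the inhibitor (1.43, limma adjusted p = 0.000815) and with ibuprofen over the inhibitor (2.10, limma adjusted p = 0.000102). Tgm5 and Tgm7 rose with the ligands over the inhibitor (1.90 and 3.20, limma adjusted p = 0.0022 and 0.000975) and fell with ibuprofen over the ligands alone (-1.77 and -6.13, limma adjusted p = 0.00709 and 0.000134). Tgm6, low throughout, fell with ibuprofen over the ligands alone (-2.51, limma adjusted p = 0.00446). Tgm7 fell with ibuprofen over the inhibitor (-2.93, limma adjusted p = 0.00149, 0.0609 with limma-voom). Leaving out 1 library moved the change of Tgm7 over the inhibitor to between 2.42 and 3.98 with the ligands and to between -3.71 and -2.16 with ibuprofen, and that of Tgm6 and Tgm5 with ibuprofen over the ligands alone to between -3.18 and -1.83 and between -2.35 and -1.2.

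Of 20 tested transcription factors of late keratinocyte differentiation and of the AP-1, Ets and Klf families, 2 rose and 9 fell with the ligands over the inhibitor, 2 rose and 7 fell with ibuprofen over the ligands alone, and 4 rose and 13 fell with ibuprofen over the inhibitor. These counts stand beside 20.4% and 19.9%, 10.7% and 9.01%, and 20.8% and 19.9% of all genes tested that rose and fell. Median log2 fold changes of the 20 were -0.27, -0.19 and -0.64. The pair that rose with ibuprofen over the ligands alone, Fosl1 and Fos, encode AP-1 subunits. Fosl1 stood at 25.1 and 25.9 CPM with ligands and ibuprofen, 7.50 and 9.84 CPM with the ligands, and 25.18 and 27.4 CPM with the inhibitor. Its levels with the ligands alone were below all others, with log2 fold changes of -1.5 with the ligands over the inhibitor (limma adjusted p = 0.000139), 1.53 with ibuprofen over the ligands alone (0.000427) and 0.04 with ibuprofen over the inhibitor (0.877). Fos stood at 77.6 and 80.6 CPM with ligands and ibuprofen, 32.2 and 28.7 CPM with the ligands, and 50.1 and 58.5 CPM with the inhibitor. Its log2 fold changes in the same comparisons were -0.80 (limma adjusted p = 0.00116), 1.42 (0.000229) and 0.62 (0.00425). The comparisons share libraries, and a link of these values with those of the Sprr2 genes was not tested. Fosl2, another AP-1 subunit, and Ehf, an epithelial Ets factor, fell with ibuprofen over the ligands alone (-0.87 and -0.79, limma adjusted p = 0.00121 and 0.000683). Jun, also an AP-1 subunit, fell there too (-0.657, limma adjusted p = 0.00352). The AP-1 subunits Fosb, Junb and Jund did not pass there (limma adjusted p = 0.168, 0.94 and 0.195). The AP-1 subunits of the list thus did not share a direction.

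Nfe2l2, which encodes the oxidative stress factor NRF2, stood at 182.1 and 196.7 CPM with ligands and ibuprofen, 194.0 and 242.6 CPM with the ligands, and 712.3 and 668.9 CPM with the inhibitor. It fell with the ligands over the inhibitor (log2 fold change -1.66, limma adjusted p = 1.41e-05) and with ibuprofen over the inhibitor (-1.78, limma adjusted p = 1.02e-05). Klf5, a factor of proliferating esophageal epithelium, fell likewise (-0.77 and -1.48, limma adjusted p = 0.000324 and 1.18e-05). With ibuprofen over the ligands alone Klf5 fell too (-0.714, limma adjusted p = 0.00132), while Nfe2l2 did not pass (-0.124, limma adjusted p = 0.475). Klf4, a factor of squamous differentiation, fell with ibuprofen over the inhibitor (-1.24, limma adjusted p = 0.000173). It also fell with the ligands over the inhibitor (-0.795, limma adjusted p = 0.0018). With ibuprofen over the ligands alone its fall was smaller (-0.443, limma adjusted p = 0.0482).

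The injury-type keratins, which like Sprr1 genes are known to increase in wounded epithelium, were counted as well. Of the 4, 2 rose and 0 fell with the ligands over the inhibitor, Krt6a (log2 fold change 0.57, limma adjusted p = 0.0123) and Krt16 (0.52, limma adjusted p = 0.0217). The others had 0.56 (Krt17, limma adjusted p = 0.0593) and 0.50 (Krt6b, limma adjusted p = 0.0652). With ibuprofen over the ligands alone Krt6b fell (-0.64, limma adjusted p = 0.0482), and Krt17, Krt6a and Krt16 had -0.57, 0.15 and 0.07 (limma adjusted p = 0.0877, 0.514 and 0.78). With ibuprofen over the inhibitor Krt6a and Krt16 rose (0.72 and 0.59, limma adjusted p = 0.00399 and 0.0122), and Krt6b and Krt17 had -0.13 and -0.01 (limma adjusted p = 0.612 and 0.968). Of the 4, 2, 1 and 2 thus passed in these comparisons, and of all genes tested 40.3%, 19.7% and 40.7% passed, so the shares lie near the background. Median log2 fold changes of the 4 were 0.54, -0.25 and 0.29. The call of Krt6b ended in 10 alternatives, and its change was -0.36 without ibuprofen replicate 1 (limma adjusted p = 0.203). The calls of Krt6a and Krt16 with the ligands over the inhibitor ended without either inhibitor library or without TGFb1+BMP4 replicate 1 (limma adjusted p 0.0519 to 0.178), and those with ibuprofen over the inhibitor without inhibitor replicate 1 (0.0536 and 0.131) and, for Krt16, without ibuprofen replicate 2 (0.0576).

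Over the 6 libraries, the genes outside the family whose log2 levels ran most like those of Sprr1a were Eml6 (Pearson r 0.994), Zfp810 (0.992), Trmt1l (0.992), Gid8 (0.986) and Ift88 (0.984). Those most like Sprr2d were Egln2 (0.997), Eif3g (0.995), Lims1 (0.993), Nenf (0.992) and Samd4b (0.992). They were taken from 13137 genes, and 6 libraries in 3 groups make such values easy to reach, so they describe likeness only. Egln2, for example, ranged from 21.4 to 30.3 CPM over the 6 libraries, while Sprr2d ranged from 143.3 to 799.8 CPM.

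In the authors' deposited table, which gives 1 p-value per gene without naming its comparison, the adjusted p was under 0.05 for 1 of the 10 genes, Sprr2i (0.0107), and for 6.64% of all 52636 genes. For the other 9 genes the authors' deposited table has adjusted p from 0.0714 (Sprr2k) to 0.472 (Sprr1b). The log2 fold changes of the ligands over the inhibitor in the authors' deposited table were -4.65 for Sprr2i, 0.62 for Sprr1a and -6.11 for Sprr2b.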

How the data were processed

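RNA of 6 organoid libraries, 2 per treatment, was sequenced. The submitters' processing notes name STAR 2.5.3a, HTSeq, edgeR and Cell Ranger 3.1.0 with builds GRCm38 and mm10, without the role of each. The authors deposited 1 table with a scaled signal per library (rounded up, with near-equal totals of 20010331 to 20013923), CPM made from that signal, log2 fold changes of both ligand treatments over the inhibitor, and 1 p-value and adjusted p-value per gene. Reads and depths were recovered from the regular steps of the scaled signal, in which 99.918% or more of values were rebuilt exactly.

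Deposited CPM were divided by TMM factors (trims 30% and 5%) and tested as log2(value + 1) with limma 3.58.1 (R 4.3.3), 1 term per group over all 6 libraries, a mean-variance trend and 3 residual degrees of freedom. Genes with at least 1 CPM in at least 2 libraries (18241) were tested, 2-sided, with Benjamini-Hochberg adjustment over all of them and a threshold of 0.05. The count tests planned for recovered reads were not run, since a check of the scaled values did not accept them as whole multiples of 1 read. The reads given here are thus inferred from the steps of the signal. Limma-voom and the exact intervals take them as true reads. The method was tested on simulated data.

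Libraries of equal replicate number deviated together (r = 0.19, 0.174 and 0.258 between the 3 pairs of groups), which hints at pairing that the labels do not state. The fit without a block was kept, and the blocked value is given where it changes a call. The genes, the lists and the motifs were chosen with earlier results of these data known. All 10 genes and the other Sprr genes are named, and from each list up to 4 genes per comparison with the smallest adjusted p. The AP-1 subunits Jun, Junb, Jund and Fosb are named besides. Most genes of a list are described only in the comparisons that picked them, and may pass in others. One gene that this rule picks is not reported here. Intervals of read ratios cover counting error only. Promoter identity is from a global alignment (Biopython).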

Additional observations from a re-analysis of the deposited data

How the results depend on the processing

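For the 10 genes, 470 log2 fold changes were recomputed under other scaling factors, pseudocounts, filters, models or with 1 library left out: 424 kept their direction and their side of the threshold, 28 lost and 11 gained a call, and 7 changed sign, each with 1 library left out and none in a value that had passed. Over those omissions, Sprr2k ranged from -0.178 to 0.05 with the ligands over the inhibitor (0.005 without TGFb1+BMP4 replicate 2), and Sprr1b from -0.077 to 0.923 with ibuprofen over the ligands alone. With ibuprofen over the inhibitor Sprr2d ranged from -0.562 to 0.067, Sprr2e from -0.203 to 0.565 and Sprr2g from -0.466 to 0.106. Outside the 10 genes signs changed, with ibuprofen over the ligands alone, for Sprr2a1 (-1.063 to 0.149), Sprr2a2 (-1.074 to 0.146), Sprr2a3 (-0.162 to 1.06) and Krt16 (-0.05 to 0.193, and -0.001 without TMM factors). Against the inhibitor, signs with ibuprofen changed for Sprr2a3 (-0.697 to 0.044), Krt17 (-0.257 to 0.23), Krt6b (-0.413 to 0.144) and Fosl1 (-0.044 to 0.096, and -0.042 without TMM factors).

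The number of all genes past the threshold was 7354, 3601 and 7419 in the 3 comparisons (ligands over inhibitor, ibuprofen over ligands alone, ibuprofen over inhibitor). With 1 library left out it was 4713 to 7324, 1641 to 2879 and 4680 to 7544. For ibuprofen over the ligands alone it was 2356 with no filter and 2296 without the mean-variance trend. Of the 10 genes, 6 to 8, 4 to 6 and 1 to 5 passed with 1 library left out, against 8, 6 and 4. With a filter of 5 CPM, which drops Sprr2k, 2 passed with ibuprofen over the inhibitor. With the replicate number as a block 7964, 4338 and 8017 genes passed. Of the 10 genes the block changed the call of Sprr2f (ibuprofen over the ligands alone and over the inhibitor) and of Sprr1b (ibuprofen over the inhibitor), and no other. The planned count tests on recovered reads were not run. Limma-voom on those reads, added after the data were seen, gave 8, 5 and 4 of the 10 genes. The causes of these differences were not tested. Depth limits Sprr2b, Sprr2k, Sprr2c-ps and Sprr4, with few reads per library.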
